A study of Rattus norvegicus and Ovis aries with 113 samples.

Results

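Voltage-gated sodium and calcium channels are built from a large pore-forming subunit and smaller subunits bound to it. The genes described here were all those whose symbol, written in capitals, began with SCN followed by digits and A or B, or with CACNA, CACNB or CACNG. The sheep count table held 37 of them among 31304 genes, and the rat table held 40 among 38675 genes. All 37 sheep symbols also occurred in rat, whereas Scn3a, Scn10a and Cacna1e had no sheep row under that symbol. The rat genes were 10 sodium channel alpha subunits, 4 sodium channel beta subunits, 10 calcium channel alpha1 subunits, 4 alpha2delta subunits, 4 calcium channel beta subunits and 8 gamma subunits.

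The series measured RNA in brain and in sperm or ovary, and its title asks which genes link neural and reproductive functions. Sheep 687, 688, 690, 694 and 699 were post-pubertal males, and each gave 10 dissected brain regions and 1 sperm sample. Post-pubertal male Sprague Dawley rats, 15 in all, each gave a whole brain and sperm from seminal fluid, and 14 female Sprague Dawley rats each gave a whole brain and an ovary sample. No animal was treated, and neither the breed of the sheep nor an age in days is given in the sources used here.

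When a neuron is depolarised, sodium channel alpha subunits open and carry the rising phase of the action potential, and beta subunits anchor them and tune their gating. Calcium channel alpha1 subunits fall into the Cav1 class (L-type, coupled to contraction, secretion and transcription), the Cav2 class (P/Q-, N- and R-type, which trigger transmitter release) and the Cav3 class (T-type, which open near rest and support bursting). The alpha2delta and beta subunits bring the pore to the membrane, and several gamma subunits act mainly as TARPs, partners that carry AMPA-type glutamate receptors to the synapse. Sperm are best known for a different calcium channel, CatSper, whose subunits are not members and were counted among partner genes.

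Library totals, in units of 1000000 counts, were 46.7 to 72.4 in sheep brain, 13.7 to 65.1 in sheep sperm, 38.2 to 119 in rat brain, 13.7 to 65.1 in rat sperm and 50.5 to 60.3 in rat ovary. Levels below are counts per 1000000 (CPM) after scaling by trimmed mean of M values (TMM) factors set to average 1 over brain libraries. Transcript lengths were not used here, so levels are compared between samples for 1 gene, and the ratio of a pair of genes only between regions. In the library labelled entorhinal cortex of sheep 688, the region pattern over 2000 genes correlated at r = -0.39 with the other entorhinal libraries and at 0.78 with motor cortex. In that labelled motor cortex of sheep 687 the correlation was -0.16 with motor cortex and 0.72 with hippocampus. In rat brain libraries 1 and 4, the 4 largest entries held 90.9% and 86.3% of the counts. Sperm markers were present in all sperm libraries, beside markers of other cells. A 12-gene list of late spermatids and sperm had a mean log2(CPM + 1) of 3.06 to 7.72 in sheep sperm and 3.08 to 10.5 in rat sperm, against at most 1.4 in any brain library and 0.758 in any ovary. In sheep sperm a 6-gene leukocyte list stood at 6.24 to 8.01, against at most 1.94 in brain. A 6-gene list of squamous or epididymal epithelium stood at 5.37 to 7.6 in sheep sperm and 3.32 to 5.33 in rat sperm, against at most 1.05 in sheep brain and 1.53 in rat brain.

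Most channel genes differed between sheep brain regions. Of the 36 members with enough counts to be tested, 34 passed an edgeR quasi-likelihood test for any difference between the 10 regions at an adjusted p below 0.05, as did 76.7% of all genes tested. CACNG1, the gamma subunit of skeletal muscle (adjusted p = 0.088), and SCN4A, the muscle sodium channel (adjusted p = 0.554), did not pass, and both were near 0 throughout the brain. Across the 36 tested members the mean of the highest region was 2.17 to 205 times that of the lowest, with a median of 5.65. Of these, 13 had their highest mean in cerebellum and 12 in basal ganglia, and the lowest was in pons for 16 and in cerebellum for 11. The heat map of region means shows these 3 regions standing apart from the cortical ones.

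**Figure D1:**
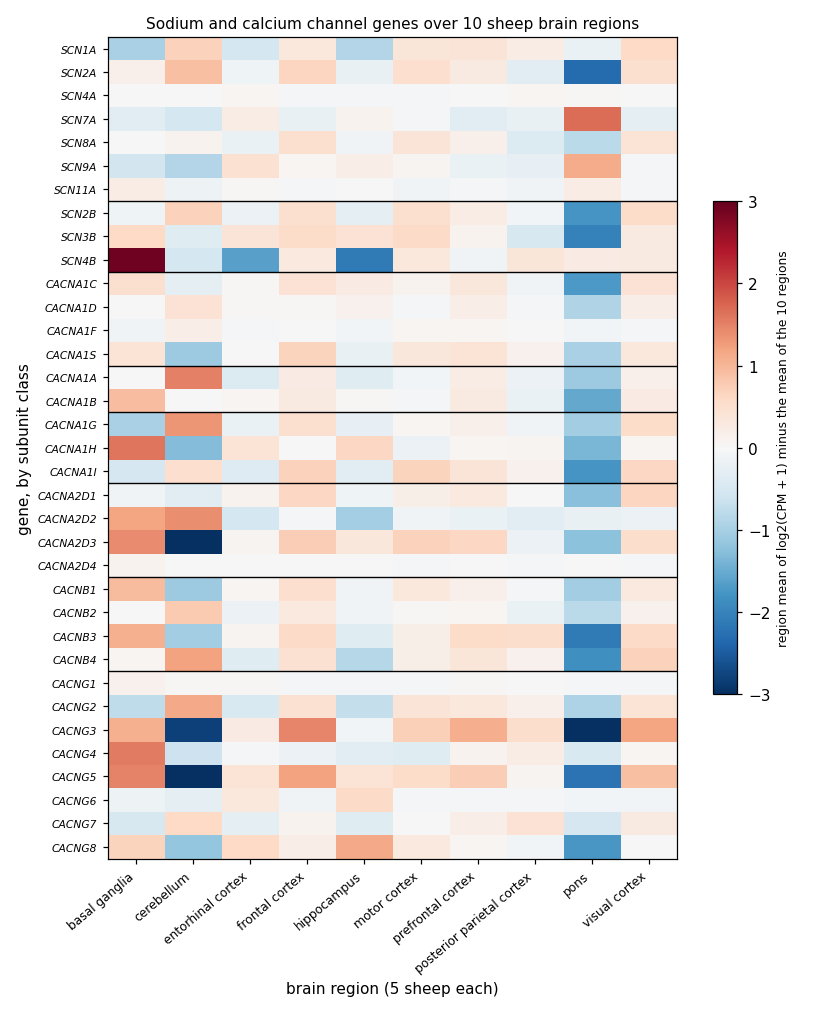
Region means of log2(CPM + 1) for 35 of the 37 sheep genes (rows, grouped by subunit class) in 10 brain regions (columns, 5 sheep each), drawn as the difference from the mean over the 10 regions; red is higher and blue lower. The strongest colours lie in basal ganglia, cerebellum and pons, where 16, 20 and 22 members were called.

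Each region was then set against the mean of the other 9 regions, and calls needed both an adjusted p under 0.05 and a log2 fold change of 1 or more in size. In cerebellum 20 of 36 members were called, 7 higher and 13 lower, where 28.8% of all genes were called, 9.35% higher and 19.5% lower. In basal ganglia 16 members were called, 13 higher and 3 lower, against 10.3% of all genes, 5.54% higher and 4.75% lower. The basal ganglia split rested on the scaling and on 1 animal: it was 7 higher and 6 lower with plain library totals, and 8 higher and 5 lower without sheep 699. Without that sheep, CACNA1B (log2 fold change 0.86), CACNB1 (0.74), CACNG1 (0.77) and CACNG3 (0.89) were no longer called in basal ganglia, nor was SCN11A. CACNG1 was also lost without sheep 687 and SCN11A without sheep 694, and the other 11 calls held without any 1 sheep. In cerebellum 19 of 20 calls held in this way, the exception being SCN11A, lost without sheep 687, 694 or 699. In pons 22 members were called, 3 higher and 19 lower, against 18.7% of all genes, 9.66% higher and 9.02% lower. The median log2 fold change of the tested members in pons was -1.10, and that of all genes was 0.03. Of the 22 pons calls, 18 held when any 1 sheep was left out. CACNA1G was lost without sheep 687, 688, 690 or 699, CACNB1 without 687 or 699, SCN11A without 699, and another call without 688, 694 or 699.

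Cell marker lists in pons differed from their brain averages. A 7-gene neuron list had a mean log2(CPM + 1) of 6.08 to 8.35 in pons and 7.57 on average, against 8.44 over all brain libraries. A 7-gene oligodendrocyte list stood at 9.66 to 12.0 in pons, against an average of 8.41 over all brain libraries. All genes of both lists had counts in pons. Sheep 699 had the lowest neuron value (6.08) and the highest oligodendrocyte value (12.0). Over sheep 687, 688, 690, 694 and 699 the pons neuron values were 8.35, 7.71, 8.06, 7.65 and 6.08. In the same order CACNB3, as 1 example, held 25.5, 20.6, 30.8, 49.5 and 14.6 CPM, with its highest level in sheep 694. Basal ganglia, where 13 members were called higher, averaged 7.81 on the neuron list. In bulk tissue, fewer cells of a type and less RNA per cell cannot be told apart, and the part of these markers in the pons results was not tested.

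Hippocampus and cortex gave fewer calls. In hippocampus 6 members were called, 3 higher and 3 lower, against 4.62% of all genes, 3.46% higher and 1.15% lower. Of the hippocampal calls 4 held without any 1 sheep, and the others were lost without sheep 690, 694 or 699. Frontal cortex, prefrontal cortex and visual cortex each had the same pair called higher, CACNG3 and CACNG5, where 2.77%, 2.46% and 2.12% of all genes were called. Posterior parietal cortex had 1 call (2.66% of all genes called), and entorhinal cortex had 1, CACNG6 (2.24%). No member was called in motor cortex (1.64% of all genes called), where 10 had an unadjusted p below 0.05, DESeq2 called 0 and edgeR with the sheep as a replicate block called 1. The cortical calls were fragile. All 6 of those in entorhinal, prefrontal, posterior parietal and visual cortex were lost without at least 1 sheep, and entorhinal cortex had 5 calls in place of 1 without the 2 libraries unlike their labels.

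Among sodium channel alpha subunits, SCN2A, a channel of excitatory neurons and their axons, was lowest in pons. Its pons libraries held 26.6, 35.4, 34.2, 78 and 14.3 CPM in sheep 687, 688, 690, 694 and 699, against 59.9 to 368 in the other regions. In 4 of 5 sheep the pons lay below every other library, and sheep 694 fell inside their range. SCN2A fell by 2.41 on the log2 scale in pons (SE 0.31, adjusted p = 1.31e-08). SCN1A, the channel of fast-spiking inhibitory neurons, did not follow it: pons libraries held 90.3, 75.7, 62.5, 47.5 and 17.8 CPM, and its log2 fold change was -0.08 (SE 0.27, adjusted p = 0.831). SCN1A was instead lowest in basal ganglia, at 30.5 ± 8.05 CPM (SD, n = 5) against 72.3 in the other regions, where it fell by 1.15 on the log2 scale (adjusted p = 0.00268). The log2 ratio of SCN1A to SCN2A was 0.67 ± 0.93 in pons and -2.63 ± 0.19 in basal ganglia (SD, n = 5 each). Other regions averaged -2.15 to -0.93. SCN8A, the channel of the axon initial segment and node, ranged least among the alpha subunits, 2.67-fold between visual cortex and pons (44.6 ± 8.15 CPM), and its pons log2 fold change of -0.95 (adjusted p = 0.00233) missed the size limit.

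SCN7A and SCN9A went the other way in pons. SCN7A encodes a sodium-sensing channel of glia and of salt-sensing nuclei, and SCN9A a channel best known from pain-sensing nerve cells. SCN7A pons libraries held 0.693, 6.25, 14.8, 3.6 and 3.07 CPM, and those of SCN9A held 2.23, 10.7, 45.2, 6.12 and 0.976 CPM. Sheep 690 was highest for both, and both overlapped the other regions, whose means were 0.559 and 2.47 CPM. SCN7A rose by 3.70 on the log2 scale (SE 0.45, adjusted p = 4.83e-09), or 3.03 without sheep 690. SCN9A rose by 2.56 (SE 0.32, adjusted p = 6.25e-09), or 1.17 without sheep 690. A 7-gene list of peripheral and brainstem nerve markers was also highest in sheep 690 pons (3.62) and lowest in sheep 687 (1.41), against a brain average of 1.30 (all 7 genes had counts). Its part in the result was not tested. SCN11A, a channel of pain fibres, averaged 0.253 CPM in brain, and SCN4A averaged 0.085.

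Among the sodium channel beta subunits, SCN4B differed sharply between regions. This subunit, which supports the resurgent current of fast-firing cells, reached 180, 175, 147, 708 and 617 CPM in basal ganglia, against 3.55 to 191 elsewhere. Sheep 694 and 699 stood far above the rest, and the other 3 lay below the highest library outside basal ganglia (191 CPM, the pons of sheep 687). SCN4B rose by 3.21 on the log2 scale in basal ganglia (SE 0.43, adjusted p = 9.81e-08) and fell by 2.83 in hippocampus (8.52 ± 3.94 CPM, SD, n = 5, adjusted p = 0.00769). The same 2 sheep were highest for a 6-gene list of striatal neuron markers, at 8.45 and 8.87 against 7.52 to 8.19 in the other 3 basal ganglia libraries. The part of the dissection in that spread was not tested. In entorhinal cortex SCN4B was 100 CPM in the library of sheep 688, whose pattern resembled motor cortex, and the other 4 held 3.98 to 9.17 CPM. SCN2B and SCN3B, also beta subunits, were each lowest in pons, at 7.90 ± 4.26 and 42.5 ± 36.6 CPM against 33.6 and 180 elsewhere. Both fell there, by 2.01 (adjusted p = 2.12e-06) and 1.99 (adjusted p = 5.02e-06) on the log2 scale. SCN3B fell by 2.64 without sheep 694, whose pons library (106 CPM) was the highest of the 5.

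Among Cav1 genes, CACNA1C and CACNA1D, the L-type channels of neurons, were lowest in pons. CACNA1C held 10.2, 8.56, 8.66, 19.1 and 4.18 CPM there against 18.9 to 71.7 elsewhere, and fell by 1.88 on the log2 scale (SE 0.23, adjusted p = 4.59e-09). Sheep 694 alone touched the range of the other regions. CACNA1D kept the narrowest spread of the class, 36.9 ± 2.75 CPM in cerebellum and 14.4 ± 5.24 in pons (SD, n = 5), and no region reached the size limit for it. CACNA1S, the L-type channel of skeletal muscle, averaged 3.20 CPM over brain and fell in cerebellum (0.789 ± 0.177 CPM) by 2.04 on the log2 scale (adjusted p = 3.11e-07). CACNA1F, the retinal L-type channel, stayed at or below 0.424 CPM in every brain library.

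CACNA1A, the P/Q-type channel and the most abundant calcium channel of Purkinje cells, was set apart in cerebellum. Its cerebellar libraries held 281, 197, 196, 232 and 212 CPM, and the 45 other libraries held 24.0 to 128. No library of another region reached the cerebellar range. CACNA1A rose by 1.66 on the log2 scale in cerebellum (SE 0.13, adjusted p = 1.01e-14) and fell by 1.15 in pons (37.3 ± 12.8 CPM, adjusted p = 2.51e-07). CACNA1B, the N-type channel, had its highest mean in basal ganglia (102 ± 27.3 CPM), with 51.8 CPM in cerebellum. It fell by 1.62 on the log2 scale in pons (18.9 ± 9.67 CPM, adjusted p = 3.41e-09). The log2 ratio of CACNA1A to CACNA1B was 2.10 ± 0.13 in cerebellum and -0.36 ± 0.18 in basal ganglia.

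The Cav3 genes CACNA1G and CACNA1H, both T-type channels, took opposite orders in cerebellum and basal ganglia. CACNA1H held 73.9, 51.4, 43.4, 74.8 and 99.4 CPM in basal ganglia, and 2.54 to 40.9 in the other 45 libraries. The groups did not overlap, and it rose by 1.85 on the log2 scale (SE 0.20, adjusted p = 2.08e-10). In cerebellum CACNA1H held 9.24, 4.57, 7.74, 10.2 and 9.10 CPM and fell by 1.59 (SE 0.27, adjusted p = 1.85e-06). CACNA1G held 153, 64.3, 87.5, 78.7 and 83.3 CPM in cerebellum and 20.1, 17.7, 14.0, 13.7 and 21.8 in basal ganglia, with no overlap between them. It rose by 1.49 in cerebellum (SE 0.20, adjusted p = 1.69e-08) and fell by 1.16 in basal ganglia (SE 0.25, adjusted p = 3.47e-04). The log2 ratio of CACNA1G to CACNA1H was 3.50 ± 0.45 in cerebellum, -1.94 ± 0.38 in basal ganglia and -0.19 to 1.25 on average elsewhere. CACNA1I, the third T-type channel, was highest in visual cortex (70.1 ± 35.7 CPM) and fell in pons (12.7 ± 6.68 CPM) by 1.95 on the log2 scale (adjusted p = 4.21e-06).

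The alpha2delta genes CACNA2D2 and CACNA2D3 parted in cerebellum. CACNA2D3 held 1.82, 1.08, 1.46, 1.5 and 1.26 CPM there and 2.96 to 77.5 CPM in every other library, and it fell by 4.20 on the log2 scale (SE 0.38, adjusted p = 7.81e-13). It was highest in basal ganglia, with 40.4, 46.2, 42.7, 61.9 and 77.5 CPM, a rise of 1.66 (SE 0.23, adjusted p = 1.64e-07). CACNA2D2, the alpha2delta subunit of Purkinje cells, rose in both: 44.7 ± 14.4 CPM in cerebellum (log2 fold change 1.61, adjusted p = 7.31e-11) and 37.2 ± 5.03 in basal ganglia (1.35, adjusted p = 4.4e-08), against 7.63 ± 2.90 in hippocampus, where it fell by 1.19 (adjusted p = 2.43e-04). The log2 ratio of CACNA2D2 to CACNA2D3 was 4.94 ± 0.36 in cerebellum and -1.74 to 0.83 on average elsewhere. CACNA2D1, a target of gabapentin, was highest in visual cortex (123 CPM) and fell in pons (33.5 ± 14.4 CPM) by 1.32 on the log2 scale (adjusted p = 9.38e-07). CACNA2D4, known from the retina, averaged 0.0287 CPM and had too few counts to be tested.

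Among the calcium channel beta subunits, CACNB3 and CACNB4 moved in opposite directions in cerebellum. CACNB4 held 155, 108, 157, 142 and 131 CPM in cerebellum and CACNB3 held 65.9, 48.2, 49.0, 59.1 and 58.9. In basal ganglia CACNB3 held 286, 181, 174, 263 and 383 CPM, where CACNB4 averaged 63.7. CACNB4 rose by 1.26 on the log2 scale in cerebellum (adjusted p = 3.56e-06), while CACNB3 fell by 1.23 there (adjusted p = 1.71e-07) and rose by 1.25 in basal ganglia (adjusted p = 2.94e-09). Both were lowest in pons, at 17.7 ± 10.1 CPM for CACNB4 and 28.2 ± 13.3 for CACNB3. They fell there by 1.99 (adjusted p = 2.64e-07) and 2.28 (adjusted p = 1.14e-12). Their log2 ratio, CACNB4 to CACNB3, was highest in cerebellum (1.30 ± 0.22) and lowest in basal ganglia (-1.99 ± 0.75). CACNB1 fell in cerebellum (21.7 ± 2.16 CPM against 56.2 elsewhere) by 1.30 on the log2 scale (adjusted p = 2.16e-06). CACNB2 was highest in cerebellum (48.4 ± 3.64 CPM), with a log2 fold change of 0.86 (adjusted p = 1.63e-08) that missed the size limit.

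The TARP gamma subunits included both the widest and the narrowest range over regions of all members. CACNG2 encodes stargazin, the TARP of cerebellar granule cells. It held 128, 113, 102, 105 and 107 CPM in cerebellum and 9.36 to 100 in all other libraries, so no library overlapped, and it rose by 1.18 on the log2 scale (SE 0.22, adjusted p = 8.57e-06). CACNG3, a forebrain TARP, held 4.99, 3.46, 2.27, 5.81 and 4.35 CPM in cerebellum and 0.063, 2.24, 1.81, 13.7 and 1.69 in pons, but 108, 98.0, 104, 98.0 and 70.8 in frontal cortex. CACNG3 fell by 3.51 in cerebellum (SE 0.53, adjusted p = 2.62e-07) and by 3.55 in pons (SE 0.53, adjusted p = 3.89e-07). The pons value was -4.98 without sheep 694, whose library held the 13.7 CPM. In frontal cortex CACNG3 rose by 1.51 (adjusted p = 0.00322), a call lost without sheep 690. Expressed as a log2 ratio, CACNG2 to CACNG3 was 4.80 ± 0.49 in cerebellum and 4.17 ± 2.59 in pons, and -1.33 to 0.23 on average in the other 8 regions.

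CACNG5, an atypical TARP, had the widest range of all members. Basal ganglia held 42.0, 27.7, 31.9, 36.9 and 63.3 CPM and cerebellum 0.143, 0.0464, 0.240, 0.411 and 0.142, with no overlap and a 205-fold difference of means. It rose by 1.94 on the log2 scale in basal ganglia (SE 0.31, adjusted p = 2.53e-06) and by 1.56 in frontal cortex (adjusted p = 0.0011). It fell by 6.61 in cerebellum (SE 0.63, adjusted p = 3.12e-12). CACNG4 held 127, 88.1, 92.6, 121 and 172 CPM in basal ganglia and 19.4 to 54.2 in the other 45 libraries, again with no overlap, and rose by 1.81 (SE 0.12, adjusted p = 5.2e-17). CACNG8, the hippocampal TARP, held 155, 192, 83.6, 109 and 44.4 CPM in hippocampus against 7.02 to 126 elsewhere, and rose by 1.41 (SE 0.19, adjusted p = 1.18e-06). The motor cortex library of sheep 687, which resembled hippocampus, held 114 CPM of CACNG8, and the other 4 motor cortex libraries held 39.0 to 56.0. CACNG7 was the most even member, 2.17-fold between cerebellum (122 ± 7.44 CPM) and pons (55.9 ± 8.68), with no region past the size limit. CACNG6 averaged 0.359 CPM in brain and CACNG1 0.110.

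**Figure D2:**
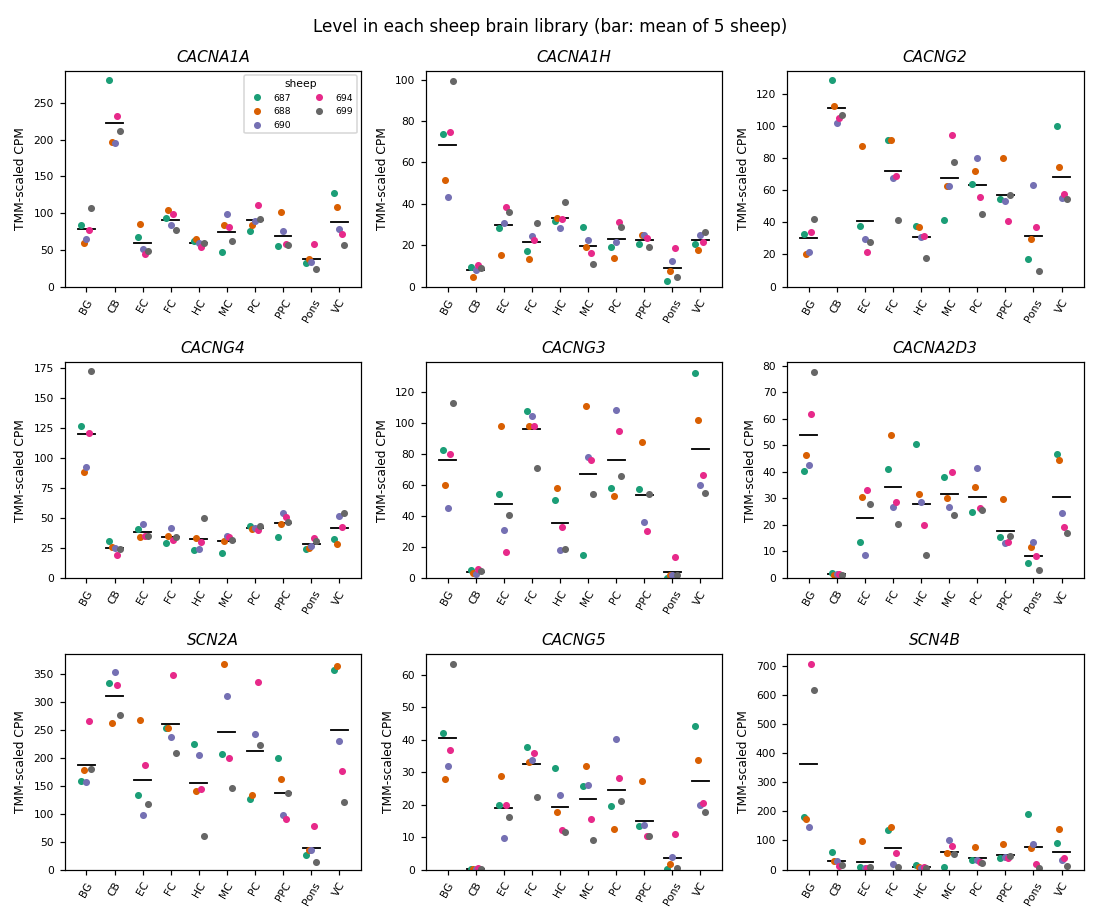
Level of 9 members in each of the 50 sheep brain libraries (TMM-scaled CPM, linear axes from 0; coloured points are sheep, bars are means of 5). BG is basal ganglia, CB cerebellum, EC entorhinal, FC frontal, MC motor, PC prefrontal, PPC posterior parietal and VC visual cortex, and HC hippocampus; CACNA1A and CACNG2 peak in cerebellum, CACNA1H, CACNG4 and SCN4B in basal ganglia, and CACNG3 and CACNA2D3 are near 0 in cerebellum.

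Marker lists of cerebellar and of striatal cells were read beside these patterns. They were chosen as markers of those regions, so high values there were set in advance, and their part in the members' levels was not tested. A 7-gene list of cerebellar granule and Purkinje cell markers averaged 8.41 in cerebellum and at most 2.44 in any other region, and the striatal list averaged 8.14 in basal ganglia and at most 3.50 elsewhere. Genes of channel partners were counted beside the members from a list of 32, of which 30 were tested in sheep. Of these, 13 were called in cerebellum (4 higher, 9 lower), 6 in basal ganglia (5 higher, 1 lower) and 11 in pons (1 higher, 10 lower), beside 28.8%, 10.3% and 18.7% of all genes. The widest ranges were those of RYR3, a calcium release channel, at 67.4 ± 22.1 CPM in basal ganglia and 1.47 ± 0.625 in cerebellum; of FGF13, an intracellular sodium channel partner, at 217 ± 24.8 and 10.4 ± 1.11 CPM in the same regions; and of RIMS1, which tethers Cav2 channels at release sites, at 347 ± 92.4 CPM in visual cortex and 21.8 ± 7.03 in pons.

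Fewer of the channel genes were detected in sperm than in brain. Detection was set at 1 CPM of the plain library total in at least 80% of a group's libraries. In sheep, 29 of 37 members were detected in brain (46.9% of all genes) and 1, SCN9A, in sperm (23.3% of all genes). The sheep sperm count depended on the scale: with TMM-scaled totals, which the printed levels use, 14 members were detected there, and 7 were when 1 CPM of the plain total was asked of 50% of libraries. In rat, 33 of 40 were detected in brain (39.4%), 7 in sperm (32.1%) and 19 in ovary (37.9%). Those in rat sperm included Cacna1a, Cacna1d, Cacna1h, Cacnb3, Cacnb4 and Scn8a, and all 7 were also detected in ovary. Where a level is 0, a library's limit is 3 counts, which is 0.046 to 0.219 CPM of the plain total in sperm libraries and 0.251 to 1.04 on the TMM scale in sheep sperm, and such limits cover counting error only.

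In sheep sperm 32 of 36 tested members were called against the mean of the 10 brain regions, 4 higher and 28 lower, where 74.2% of all genes were called, 33.1% higher and 41.1% lower. The median log2 fold change was -4.20 for the members and -0.42 for all genes. For 20 of the called members no sperm library overlapped any of the 50 brain libraries, as for 38.1% of all genes tested. All 32 calls held without any 1 sheep, but 16 of the fold changes then moved by more than 1.5 times. CACNA1B, CACNG3, CACNG5 and CACNA1F had no count in any sperm library. Against a floor of 3 counts over the 5 sperm libraries, taken on the TMM scale (0.0776 CPM), CACNA1B was at least 734-fold lower than in brain, CACNG3 at least 699-fold and CACNG5 at least 261-fold. Brain CACNA1F was itself low, at 0.123 CPM, which gives at least 1.59-fold.

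The 4 members called higher in sheep sperm were sodium channel alpha subunits, apart from CACNG1. SCN9A held 15.4, 3.34, 15.6, 4.81 and 10.7 CPM in the sperm of sheep 687, 688, 690, 694 and 699, from 40 to 107 counts a library, against 0.532 to 45.2 in brain. The sperm values lay inside the brain range, whose upper end was pons. SCN9A rose by 2.00 on the log2 scale (SE 0.35, adjusted p = 1.33e-06), but with plain library totals, which put the median of all genes 2.42 lower, its log2 fold change was -0.62 (adjusted p = 0.175), and limma voom with quality weights did not call it (2.21, adjusted p = 0.0836). SCN11A held 17.3, 0, 6.59, 6.53 and 3.31 CPM against at most 0.662 in brain, and 4 of 5 sperm libraries were above all brain libraries. It rose by 4.98 (SE 0.34, adjusted p = 4.3e-19), or 4.15 without sheep 687. SCN4A held 0, 2.26, 1.04, 5.50 and 1.23 CPM against at most 0.572 in brain and rose by 4.84 (SE 0.52, adjusted p = 6.18e-12). The 1.04 CPM of sheep 690 equals that library's limit of 3 counts on the TMM scale. By plain totals SCN4A did not reach 0.5 CPM in 80% of the sperm libraries. CACNG1 rested on 20 counts over 5 libraries (0.598 ± 0.481 CPM) and had a log2 fold change of 2.57 (adjusted p = 1.53e-05), or 0.22 with plain totals (adjusted p = 0.712).

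Markers of leukocytes and of epithelium were abundant in the same sheep sperm libraries, at the levels given above. SCN11A was 0 in sheep 688, which had the highest leukocyte (8.01) and epithelium (7.6) values and the lowest sperm marker value (3.06). SCN4A instead had no count in sheep 687, where the leukocyte value was lowest (6.24), and was highest in sheep 694 (leukocyte value 7.91). Sheep 699 and 687 had the highest sperm marker values (7.72 and 7.50). The part of other cells in these results was not tested. Among the 4 not called were CACNA1H, SCN7A and CACNG6. CACNA1H held 26.1, 1.17, 25.3, 1.26 and 23.9 CPM, so on the TMM scale 3 sperm libraries sat near the brain mean of 25.8 and 2 near 0 (log2 fold change -0.39, adjusted p = 0.303). By plain totals its mean was 2.58 CPM in sperm and 25.3 in brain. CACNB3 held 4.61, 77.4, 26.4, 2.63 and 8.10 CPM and fell by 2.15, or by 3.45 without sheep 688, the high library.

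In rat sperm 34 of 37 tested members were called against male brain, 1 higher and 33 lower, where 59.1% of all genes were called, 27.7% higher and 31.5% lower. The median log2 fold change was -5.94 for the members and -0.03 for all genes, and for 32 called members the 15 sperm and 15 brain libraries did not overlap, as for 31.6% of all genes. Cacng3 had 2 counts over all 15 sperm libraries against a male brain mean of 46.0 CPM, and Cacng2 had 14 counts against 58.8 CPM. Cacna1e, the R-type channel, fell from 187 ± 40.9 to 0.0719 ± 0.121 CPM, a log2 fold change of -10.97 (adjusted p = 2.84e-18).

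A few calcium channel genes stayed measurable. Cacnb3 had the lowest, median and highest sperm values of 2.58, 43.9 and 93.1 CPM, against 145 ± 13.2 in male brain (SD, n = 15), and fell by 1.67 on the log2 scale (SE 0.32, adjusted p = 2.26e-05). Its gene overlaps Tuba1c, which held 240 ± 51.9 CPM in sperm, so its count is uncertain if reads of the pair were not separated. Cacna1h had 3.98, 11.1 and 33.8 CPM against 26.6 ± 5.24. Its log2 fold change of -0.99 (SE 0.23, adjusted p = 3.03e-04) missed the size limit narrowly, and under 7 alternatives it was called, at -1.04 to -1.36, among them the replicate block (-1.21). Cacna1d was the most even, at 3.88, 5.53 and 6.96 CPM, and was above 0 in all 15 libraries; it fell by 3.17 from 53.8 ± 10.7 CPM (SE 0.12, adjusted p = 6.5e-21). Cacna1a had 2.21, 7.00 and 15.2 CPM and fell by 4.27 (adjusted p = 6.65e-18), and Cacnb4 had 1.03, 1.86 and 10.0 CPM and fell by 5.94 (adjusted p = 5.21e-18).

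Of the sodium channel genes, Scn8a had 0, 4.29 and 6.80 CPM, the 0 being library 17, and fell by 5.27 (adjusted p = 4.38e-15). Scn11a was the single member called higher, from 0.157 ± 0.0813 to 0.414 ± 0.256 CPM (log2 fold change 1.5, adjusted p = 0.00455), and with the animal as a replicate block it was not called (1.23, adjusted p = 0.0628). Scn9a, whose sheep counterpart was called higher, fell in rat sperm by 5.31 (0.136 ± 0.271 against 6.97 ± 1.62 CPM, adjusted p = 2.22e-07).

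Cacna2d3 varied most between rat sperm libraries. It reached 90.8 CPM in rat 14, 37.8 in rat 7, 19.9 in rat 3 and 6.56 in rat 13, and was at most 1.15 CPM in the other 11, 6 of them without a count. Male brain held 36.3 to 75.1 CPM, so rat 14 exceeded every brain library and rat 7 fell among them, and the group difference was not called (log2 fold change -2.06, SE 0.98, adjusted p = 0.0559). Its counts in rats 3, 7 and 14 were 1384, 2493 and 5911. The 4 rats were also the 4 highest for the sperm marker list, at 10.5 (rat 14), 9.85 (rat 7), 8.71 (rat 3) and 7.34 (rat 13), with 3.08 to 6.45 in the others. The same 4 were highest for Cacna2d1 and Cacng8, which reached 8.51 and 4.27 CPM in rat 14. They were also highest, at lower levels, for Scn2a, Scn9a, Scn10a and Cacng5. Smooth muscle, neuron, oocyte and cerebellar cell lists were also highest in these 4 rats (at most 2.92, 1.16, 0.573 and 0.353). High values there were thus not particular to sperm markers, and the part of any of these lists was not tested. Lrtm1, which overlaps Cacna2d3, had no count in sperm. Cacnb3 was low in 3 of these 4, at 11.7, 2.58 and 10.8 CPM in rats 3, 7 and 14.

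**Figure D3:**
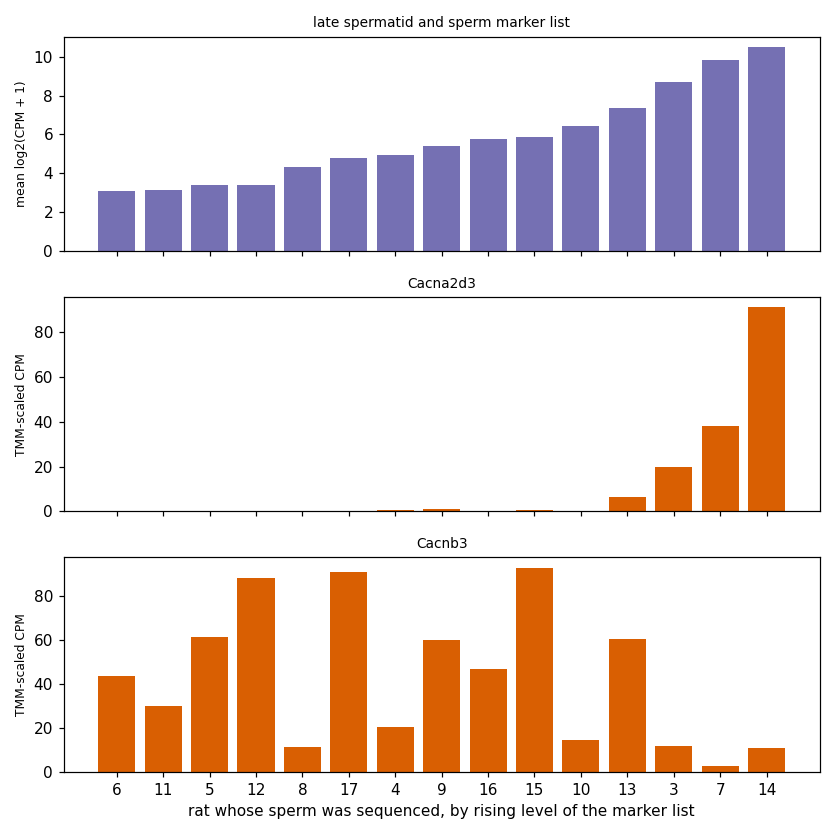
The 15 rat sperm libraries ordered by the mean log2(CPM + 1) of the late spermatid and sperm markers (top), with the level of Cacna2d3 (middle) and Cacnb3 (bottom) in TMM-scaled CPM, bars from 0. Cacna2d3 is above 6 CPM in the 4 libraries at the right, which have the highest marker values, and at most 1.15 CPM in the other 11.

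In rat ovary 34 of 35 tested members were called against female brain, all lower, where 56.9% of all genes were called, 27.7% higher and 29.2% lower. The median log2 fold change was -3.89 for the members and 0.02 for all genes, and for 33 called members the 14 ovaries and 14 brains did not overlap, as for 45.4% of all genes. The exception was Scn7a, with 1.45, 1.98 and 3.55 CPM (lowest, median and highest) in ovary and 2.40 ± 1.51 in brain (log2 fold change -0.09, SE 0.22, adjusted p = 0.694). Cacna2d1 had 23.8, 29.5 and 42.0 CPM against 155 ± 23.8 in brain and fell by 2.36 on the log2 scale (SE 0.09, adjusted p = 1.03e-20). Cacna1h had 6.90, 11.9 and 16.5 CPM against 23.8 ± 4.42 and fell by 1.01 (SE 0.12, adjusted p = 2.39e-09). That call sat on the size limit, with -0.93 by upper quartile factors, -0.77 by plain totals and -0.97 without the low-count filter.

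Of the other ovarian calcium channel genes, Cacnb2 had 6.17, 10.8 and 12.5 CPM and fell by 1.83 (adjusted p = 6.59e-18), and Cacnb3 had 12.1, 15.4 and 21.2 CPM and fell by 3.11 (adjusted p = 8.63e-24). Cacna1c averaged 7.63 ± 1.22 CPM, Cacna1d 6.85 ± 1.56, Cacna1g 7.68 ± 1.58, Cacna2d2 7.59 ± 1.41 and Cacna2d3 7.78 ± 1.39 (SD, n = 14), each far below its brain level, with falls of 2.81 to 3.61 on the log2 scale. Cacna1a (4.03 ± 0.711 CPM), Cacnb4 (2.48 ± 0.622) and Cacnb1 (1.36 ± 0.339) fell by 5.21, 6.05 and 5.84. Among sodium channel genes, Scn2b had 9.81, 15.7 and 22.9 CPM, and Scn3a 2.92, 8.30 and 12.9, with falls of 3.89 and 2.23. Scn4b, Scn8a and Scn2a averaged 4.33 ± 1.82, 4.22 ± 3.21 and 1.23 ± 0.223 CPM. Cacng2 had 4 counts over 14 ovaries against a brain mean of 65.0 CPM, and Cacng3 had 24 against 46.7. A smooth muscle list averaged 6.71 in ovary and 2.58 in female brain, and a granulosa, theca and luteal list averaged 6.46 and 0.745.

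**Figure D4:**
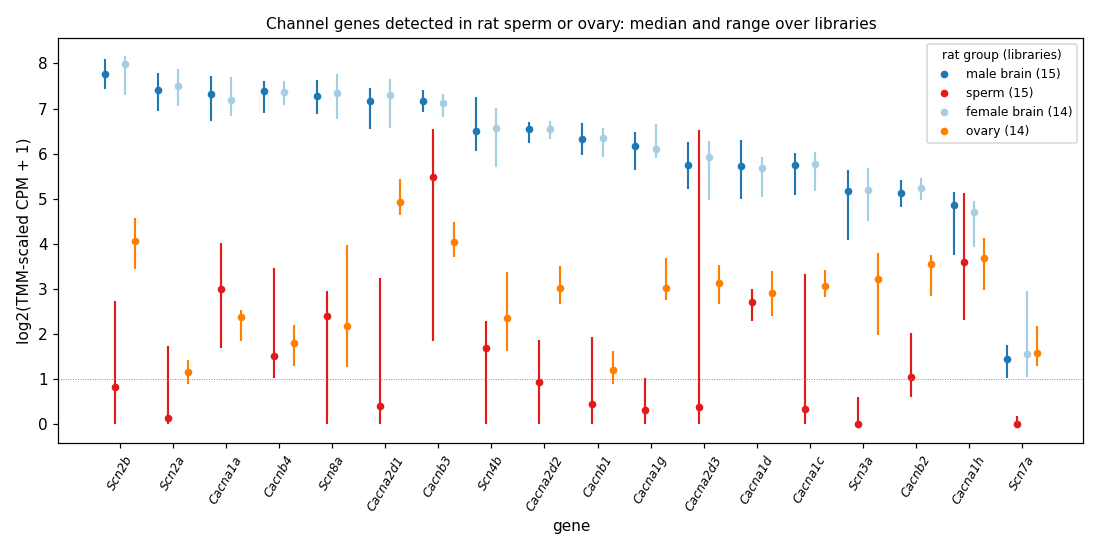
Median (point) and range (line) over libraries of log2(TMM-scaled CPM + 1) for 18 of the 19 members detected in rat sperm or ovary, by male brain, sperm, female brain and ovary; the dotted line is 1 CPM. Ovary and sperm lie below brain for nearly all, except Scn7a in ovary, and Cacna2d3 and Cacna1h reach the brain range in some sperm libraries.

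Of the partner genes tested, 18 of 30 were called lower in sheep sperm (6 higher), 20 of 28 in rat sperm (2 higher) and 21 of 28 in rat ovary (2 higher), where 41.1%, 31.5% and 29.2% of all genes were called lower. CATSPER4, a pore subunit of the CatSper channel, averaged 11.7 ± 6.52 CPM in sheep sperm and 0.112 ± 0.0678 in brain. Catsper2, another, averaged 20.6 ± 35.7 CPM in rat sperm and 2.32 ± 0.251 in brain, with an SD above its mean in sperm. They are single examples picked from the CatSper genes of the list, a different gene in each species, and the others are not described here. Further partner levels, not corrected for length and not ranked between genes, were in sheep sperm RIMS2 (217 ± 154 CPM), TPCN1 (105 ± 109) and ERC2 (74.6 ± 75.4), in rat sperm Ank3 (94.3 ± 13.9), Tpcn1 (56.2 ± 19.2) and Tpcn2 (32.9 ± 14.0), and in ovary Gem (51.4 ± 18.1), Tpcn1 (46.2 ± 3.82) and Cachd1 (20.6 ± 4.30). Gem encodes a small GTPase that lowers calcium channel current, and female brain held 2.73 ± 0.864 CPM of it. Sheep brain averaged 67.7 CPM for RIMS2, 52.0 for TPCN1 and 53.7 for ERC2. In sheep sperm their libraries spread from 18.1 to 413, 9.51 to 286 and 5.85 to 192 CPM. These sheep sperm levels are on the TMM scale, and plain totals give lower ones in every sheep sperm library.

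Set side by side, 34 members were tested in both sperm comparisons, and 25 were called lower in both species, against 20.4% of the 13740 genes tested in both. SCN9A and SCN4A were called in opposite directions. Scn4a fell in rat sperm by 5.58 on the log2 scale (0.043 ± 0.0787 against 2.52 ± 0.392 CPM). Within rat, 31 members were called lower in both sperm and ovary, against 21.3% of the 19623 genes tested in both. Library kits and extraction differed between the species, so species and preparation cannot be told apart.

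Between male and female rat brain, edgeR called 0 of 37 tested members (0.0583% of all genes were called), 2 had an unadjusted p below 0.05, and DESeq2 called 0. Those 2, named after their values were seen, were Cacng5 (13.4 ± 3.12 CPM in males and 16.1 ± 3.04 in females, adjusted p = 0.387) and Scn7a (1.68 ± 0.370 and 2.40 ± 1.51, adjusted p = 0.383). A pair of retinal channel genes did vary between rats. Cacna1f held 17.3, 13.1, 6.20 and 4.10 CPM in rats 14, 2, 13 and 19, and at most 3.40 in the other 25 brains, with a median of 0.317. Cacna2d4 held 9.08, 9.11, 4.50 and 3.57 CPM in the same rats and at most 2.06 elsewhere, with a median of 0.322. A 7-gene pineal gland list, chosen after these values were seen, was highest in the same 4 rats, at 4.47, 5.38, 3.48 and 3.35. The other 25 brains reached 2.92, close to rat 19, and the median was 0.530. Tph1, the first enzyme of melatonin synthesis, held 367, 560, 224 and 146 CPM in rats 14, 2, 13 and 19, and at most 89.5 in the other 25. Not every gene of the list singled out these rats. Aanat was lower in rat 13 (1.21 CPM) than in rat 25, and Gngt1 was lower in rat 19 (4.77 CPM) than in rat 6. The part of pineal tissue in the 2 genes' values was not tested.

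Several members sit next to each other in the rat genome (GRCr8). On chromosome 3 lie Scn3a, Scn2a, Scn1a, Scn9a and Scn7a, on chromosome 8 Scn10a and Scn11a and, 9.35 kb apart, Scn2b and Scn4b. Chromosome 10 holds Cacng1, Cacng4 and Cacng5, and chromosome 1 Cacng6, Cacng8 and Cacng7. In sheep, where positions were not used here, SCN2A was lowest in pons whereas SCN9A and SCN7A were highest there. CACNG1, CACNG4 and CACNG5 had their highest mean in basal ganglia, as did 12 of the 36 tested members. CACNG1 averaged 0.110 CPM and did not pass the test for any region difference. CACNG6 and CACNG8 had their highest mean in hippocampus and CACNG7 in cerebellum. By rat annotation 25 members overlap another gene, 7 of them a protein-coding one, so their counts are uncertain where the counting could not separate the genes.

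Promoter sequences (RefSeq, GRCr8, 250 bases before to 50 after the start) were matched for 27 of the 40 rat genes. The sequences below are single examples that differ in CpG content, from genes detected in sperm (Cacna1d, Cacnb3) and genes not detected there (Scn2a, Cacng2). Scn2a had a median of 0.109 CPM in sperm and reached 2.33 in rat 14. Capitals mark CG pairs. Cacna1d is at chr16:5527500-5527799 (minus strand), Cacnb3 at chr7:131666301-131666600 (plus), Scn2a at chr3:70710706-70711005 (plus) and Cacng2 at chr7:111577708-111578007 (minus).
Cacna1d: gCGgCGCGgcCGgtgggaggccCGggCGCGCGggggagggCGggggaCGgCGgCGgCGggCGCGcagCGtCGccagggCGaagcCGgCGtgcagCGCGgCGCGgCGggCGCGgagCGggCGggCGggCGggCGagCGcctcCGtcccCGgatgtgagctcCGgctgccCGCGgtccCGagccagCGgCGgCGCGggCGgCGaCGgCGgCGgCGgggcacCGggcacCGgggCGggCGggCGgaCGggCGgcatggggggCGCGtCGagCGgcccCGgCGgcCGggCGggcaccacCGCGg
Cacnb3: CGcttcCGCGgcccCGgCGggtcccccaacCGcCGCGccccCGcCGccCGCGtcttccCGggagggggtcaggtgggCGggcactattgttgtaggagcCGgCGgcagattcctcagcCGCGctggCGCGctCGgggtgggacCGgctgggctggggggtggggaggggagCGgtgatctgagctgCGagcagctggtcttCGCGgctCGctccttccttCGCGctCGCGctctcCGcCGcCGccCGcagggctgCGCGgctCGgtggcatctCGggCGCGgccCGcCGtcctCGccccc
Scn2a: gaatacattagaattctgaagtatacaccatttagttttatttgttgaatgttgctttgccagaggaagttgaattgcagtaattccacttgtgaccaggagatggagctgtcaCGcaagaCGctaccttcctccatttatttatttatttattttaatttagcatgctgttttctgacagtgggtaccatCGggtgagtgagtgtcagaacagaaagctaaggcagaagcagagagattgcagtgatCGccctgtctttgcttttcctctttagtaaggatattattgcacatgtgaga
Cacng2: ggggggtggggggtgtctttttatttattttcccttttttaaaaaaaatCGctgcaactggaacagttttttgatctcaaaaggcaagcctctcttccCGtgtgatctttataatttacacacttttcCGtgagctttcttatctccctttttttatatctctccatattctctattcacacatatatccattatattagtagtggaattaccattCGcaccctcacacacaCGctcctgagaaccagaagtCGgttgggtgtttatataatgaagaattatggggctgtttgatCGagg
Cacna1d had 66 CG pairs and Cacnb3 44, whereas Scn2a had 4 and Cacng2 7. The 4 sperm-detected genes with a promoter entry (these and Cacna1a and Scn8a) had 41 to 66 CG pairs and 76.0 to 88.7% G and C, and the 23 others had 2 to 44 and 39.0 to 79.3%. Cacna2d2 and Cacna2d3, among those 23, had 44 and 42 pairs, so the ranges overlapped. Cacna1b, also among them, had 34. Among all genes detected in male rat brain, the median was 61.0% G and C for the 9514 detected in sperm and 56.3% for the 3284 not detected. Their median CG pairs were 21 and 10, and those of the members 52 and 9, a difference in the same direction. The sets are unlike, since the members were not limited to genes detected in brain. Cacna1f and Scn10a, among the 23, were not detected there. These are descriptions of groups chosen by their sperm values, with no test.

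The promoter of Cacng3, which had 2 counts in 15 sperm libraries and 24 in 14 ovaries, was printed for a second feature, at chr1:186632312-186632611 (plus strand). Capitals mark TTCAGCACC, the first stretch of the sequence bound by the repressor REST, which silences neuronal genes outside the nervous system.
Cacng3: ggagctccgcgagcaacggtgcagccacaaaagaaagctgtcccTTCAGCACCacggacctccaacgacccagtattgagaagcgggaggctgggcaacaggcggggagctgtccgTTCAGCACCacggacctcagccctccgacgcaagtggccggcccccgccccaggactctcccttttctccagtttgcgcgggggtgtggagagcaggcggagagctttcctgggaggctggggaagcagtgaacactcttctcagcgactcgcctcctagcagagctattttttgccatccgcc
It occurred in 2 copies there, in no other of the 30 member promoters, and in 0.356% of all 33469 promoters searched on both strands. The match describes the letters only. A search for the second stretch of the REST sequence matched 6 of the 30 member promoters and 21.7% of all promoters. In Cacng3 that second stretch lay on the opposite strand, so it did not follow the printed copies. Cacng2, Cacna1e and Cacng5 averaged 0.0195, 0.0719 and 0.0183 CPM in rat sperm, and their promoters lacked the first stretch. Whether REST has a part in the Cacng3 counts was not tested.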

How the data were processed

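The authors deposited whole-number counts per gene for each sample. Per the submitters' processing notes, reads were handled with bcl2fastq 2.20, Trimmomatic 0.39, STAR 2.7.5a and Rsubread 2.20.0 in R 4.4.2 against GRCr8 and ARS-UI_Ramb_v3.0. How counting treated strand and multi-mapped reads is not given in the sources used here.

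Groups came from the labels, and a shared number marks 1 animal. Counts were tested with edgeR 4.0.16 (quasi-likelihood, TMM, filterByExpr) in R 4.3.3, 1 fit per comparison family over all genes, with Benjamini-Hochberg adjustment. Alternatives were other scalings, no low-count filter, DESeq2 1.42.0, voom (limma 3.58.1), an animal block, left-out animals and other detection limits. Leaving out the 2 sheep brain libraries unlike their labels, rat brains 1 and 4, or rat sperm 7, 16 and 17 was chosen after seeing the data. The test was also run on simulated counts with 200 genes changed. These were drawn from 1 shared composition without animal effects, so the run cannot speak to such features of these data.

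Same-animal deviations correlated at a median r of 0.185 between sheep regions, 0.0631 between sheep sperm and brain, 0.0583 between rat sperm and brain and -0.000525 between ovary and brain. The pairing comes from the labels.

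Members and lists were chosen with earlier results of these data known. Values per library or group were due for non-overlapping region calls (at most 3 per region, with at least 1 CPM), for members detected or called higher in sperm or ovary, and for calls between the sexes. Levels per kilobase were not computed because lengths were not used here. Other members were described after their values were seen. Values of 2 members are not reported here.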

Additional observations from a re-analysis of the deposited data

Results flagged for a closer look

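SCN9A moved in opposite directions in the sperm of the 2 species: the mean difference of log2(CPM + 1) between sperm and brain of the same animal was 1.46 in sheep and -2.81 in rat. The gap was 4.27, every sheep had the higher level in sperm and every rat the lower, and the difference between the species was not tested. It was 1 of 37 members compared in this way, and the sheep direction turned with plain library totals.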

How the results depend on the processing

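Of 349 values of 36 named fold changes under alternatives, 335 kept their direction and side of the threshold, 7 became called, 6 were no longer called and 1 reversed: SCN9A in sheep sperm, at -0.62 with plain library totals. Plain totals shifted the median of all genes by -2.42 in sheep sperm. The cause was not tested.

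Counts of called members stayed within 1.5 times for 189 of 220 alternatives, and the exceptions were in hippocampus, cortex and sheep sperm detection. Entorhinal cortex (1 call) had 2 with plain totals, 4 with voom, 2 by adjusted p alone, 5 without the 2 libraries unlike their labels and 0 to 3 when 1 sheep was left out. Frontal cortex (2) had 4 with voom, 6 by adjusted p alone and at lowest 1 without a sheep. Hippocampus (6) had 11 by adjusted p alone. Motor cortex (0) had 2 with voom, 1 with the replicate block, 2 without the 2 libraries and 0 to 2 without a sheep. Prefrontal cortex (2) had 0 with plain totals and 0 to 2 without a sheep. Posterior parietal cortex (1) had 3 by adjusted p alone and 0 to 1 without a sheep, and visual cortex (2) had 5 and 0 to 2. The members detected in sheep sperm (1) were 5 at 0.5 CPM, 0 at 2 CPM, 14 with TMM-scaled totals, 0 in all libraries and 7 in 50% of libraries. Apart from motor cortex and Scn11a in rat sperm, the replicate block changed no count by over 1.5 times. In sheep sperm, a library's limit of 3 counts reached 0.219 CPM of the plain total and 1.04 CPM on the TMM scale, both in sheep 690.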
